A study of Camellia sinensis with 12 samples.

Results

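The csn-miR166 family has 42 IDs in the counts of Xinyang Maojian (XYMJ) tea, and 38 of them are described here, namely all IDs that begin with cas-MIR166- except cas-MIR166-4, cas-MIR166-41, cas-MIR166-22 and cas-MIR166-32. These 4 are called the abundant IDs below. The whole series lists 650 miRNA IDs. Of the 38 members, 28 had at least 10 counts summed over the libraries and were tested, and the other 10 had fewer and are described as a sum. The members were set aside as the minor ones of the family, but the counts do not bear this out for every ID. cas-MIR166-2, with 92414 counts in all, ranked 3 in the family by counts and lay above cas-MIR166-22 (86856) and cas-MIR166-32 (11213), and cas-MIR166-13 (42149) and cas-MIR166-28 (24137) also lay above cas-MIR166-32.

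The study sequenced small RNAs of 4 tissues of 3-year-old XYMJ plants from a single tea plantation, in 12 libraries with 3 replicates per tissue. The tissues were the bud at the top of the shoot (sBud), the first leaf below it (sL1), the second, more mature leaf below it (sL2) and the stem between both leaves (sS1). All tissues came from plants of the same variety, and the paper describes no treatment of them. Every library holds bulk tissue, so fewer cells with a miRNA and less of it per cell cannot be told apart. The replicates are described as biological, but which plants gave which replicate is not stated. The deposited tissue field says leaf for all libraries, so the tissue was taken from the titles. Small RNA counts hold no defining marker of a bud, leaf or stem, and the labels were not checked against one.

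miR166 and its close relative miR165 bind the mRNAs of class III HD-ZIP transcription factors, such as PHABULOSA, PHAVOLUTA and REVOLUTA of Arabidopsis, and cause their cleavage. In Arabidopsis leaves they act on the lower (abaxial) side, so that the HD-ZIP factors stay on the upper (adaxial) side and the blade becomes flat. The same pair acts in the shoot meristem and in the patterning of xylem in vascular tissue. Members of a miR166 family often share all or nearly all bases of the mature miRNA. No separate role is known here for any member below, and how a read that matches more than 1 member was assigned is not given in the sources used here.

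Library totals lay between 387015 and 746562 counts, and replicate libraries differed by more than sampling noise (chi-square per degree of freedom 16.1 to 124). The 38 members held 175106 counts, which is 2.69% of all counts and 6.50% of the miR166 counts. Their sum was 12340, 10193 and 14350 counts in the sBud libraries, 11014, 15680 and 12223 in sL1, 24087, 18332 and 17863 in sS1 and 11978, 11406 and 15640 in sL2. As a share of the library total the sum was 2.50% ± 0.12 in sBud (SD, n = 3) and 2.97% ± 0.17 in sL1, compared with 3.22% ± 0.092 in sS1 and 2.11% ± 0.28 in sL2. Every sL1 and sS1 library lay above every sBud and sL2 library, while sL1 overlapped with sS1, and sBud with sL2. The 4 abundant IDs followed the same order, with 34.0% ± 1.30 of the library total in sBud and 43.6% ± 3.48 in sL1, compared with 47.9% ± 4.39 in sS1 and 29.1% ± 1.79 in sL2. Counted within the family, the members had 6.85% ± 0.42 of the miR166 counts in sBud and 6.38% ± 0.27 in sL1, compared with 6.32% ± 0.47 in sS1 and 6.76% ± 0.84 in sL2, and the ranges of all tissues overlapped. The 95% Wilson interval of a single library was at most 0.110 percentage points wide for the share of the total and at most 0.248 for the share of miR166. It leaves out the differences between replicates. As PCR products are not independent molecules, it can also understate the counting error. No test is given for these sums, because the members were chosen with earlier results of these data known.

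**Figure D1:**
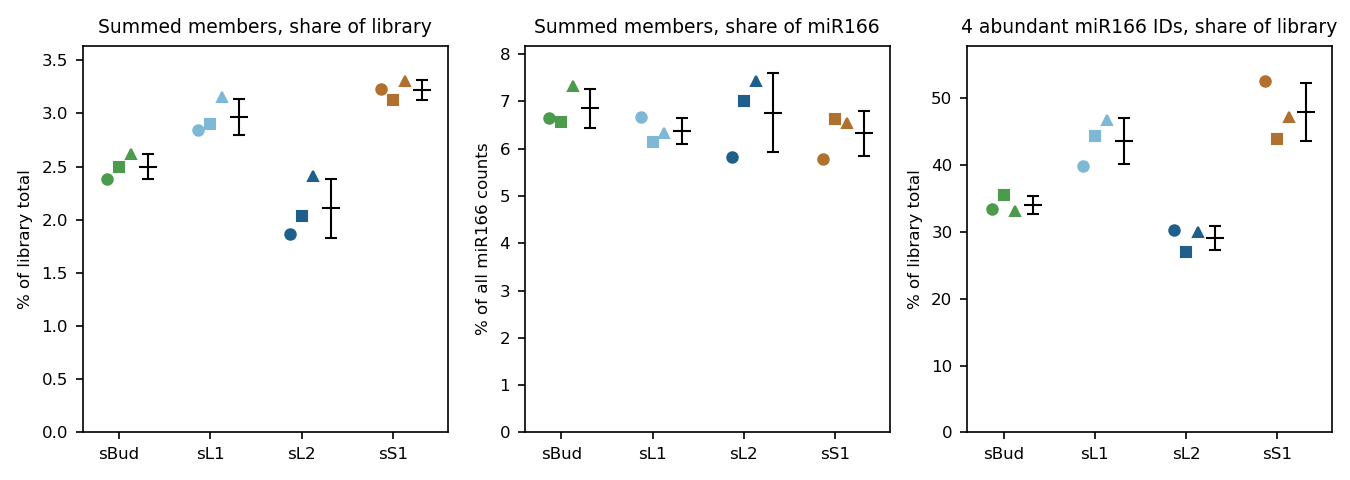
Share of the 38 members in the library total, their share in all miR166 counts, and the share of the 4 abundant IDs in the library total (%, y axes) for each tissue (x axis). Each symbol is a library (circle, square and triangle for replicates 1, 2 and 3), and the black bar is the mean ± SD (n = 3). The left and right panels have the same order of means (sL2, sBud, sL1, sS1), whereas in the middle panel the libraries lie between 5.78% and 7.44% and overlap.

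The summed counts were concentrated in a few members. cas-MIR166-2, cas-MIR166-13, cas-MIR166-28 and cas-MIR166-5 held 96.6% of them, and cas-MIR166-2 alone 52.8%. The tissues differed in this make-up. cas-MIR166-2 made up 48.3% ± 0.89 of the summed counts in sBud (SD, n = 3) and 58.1% ± 8.10 in sL1, compared with 62.7% ± 3.63 in sS1 and 35.0% ± 4.10 in sL2. cas-MIR166-28 made up 14.6% ± 0.72 in sBud and 9.50% ± 1.62 in sL1, compared with 9.28% ± 2.49 in sS1 and 24.4% ± 2.95 in sL2. All sL2 libraries were thus the lowest for cas-MIR166-2, at 31.5% to 39.5%, and the highest for cas-MIR166-28, at 21.5% to 27.4%. cas-MIR166-13 made up 16.6% to 33.8% of a library's summed counts, with its 3 highest values in sL2, and cas-MIR166-5 made up 3.05% to 9.36%.

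**Figure D2:**
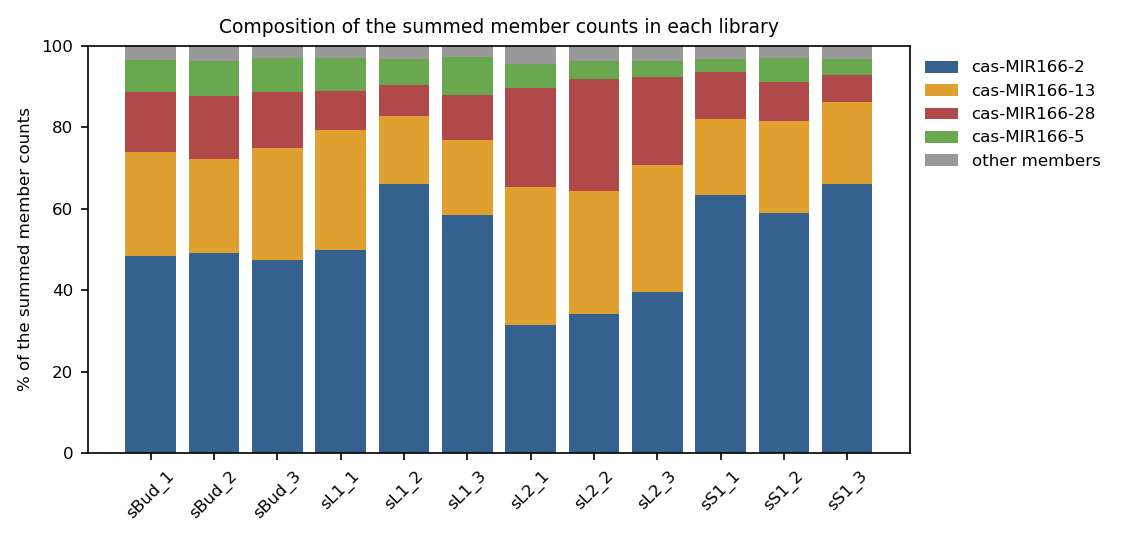
Percent of the summed counts of the 38 members (y axis) taken by cas-MIR166-2, cas-MIR166-13, cas-MIR166-28, cas-MIR166-5 and all other members in each of the 12 libraries (x axis). The blue part (cas-MIR166-2) is smallest in the 3 sL2 libraries, where the red part (cas-MIR166-28) is largest.

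Levels are given below in CPM, the counts per 1000000 counts, scaled by the library total and the TMM factor of edgeR. A DEM is an ID whose log2 fold change exceeds 1 in size, with p below 0.05 before adjustment, in edgeR's quasi-likelihood test over all 222 IDs with at least 10 counts, and adjusted p-values are those of Benjamini and Hochberg over the same 222 IDs. Over the 6 comparisons the 28 tested members gave 24 such calls on 13 of them, or 14.3% of 168 tests, against 30.2% of the 1332 tests of all miRNAs (402 calls). Of these, 15 calls on 9 members also had an adjusted p below 0.05 (8.93% of tests, against 24.2%). In the 3 comparisons with sL2, members were lower in sL2 in 20 of 21 calls, against 132 of 278 calls of all tested miRNAs (47.5%), whereas relative to the 4 abundant IDs all 5 calls were higher in sL2, as were 223 of 303 calls of all tested miRNAs (73.6%). These 3 comparisons share the sL2 libraries, so they are not independent of each other. The lowest mean CPM of a member was in sL2 for 17 of the 28, in sBud for 6, in sL1 for 5 and in sS1 for 0. The highest was in sS1 for 10, in sBud for 7, in sL1 for 6 and in sL2 for 5.

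cas-MIR166-2, the member with the most counts, was lowest in the second leaf and highest in the stem. It had 5980, 5002 and 6791 counts in sBud and 5483, 10344 and 7148 in sL1, compared with 15228, 10794 and 11807 in sS1 and 3769, 3888 and 6180 in sL2. Its level was 11716 ± 720 CPM in sBud (SD, n = 3) and 17972 ± 4150 in sL1, compared with 22355 ± 3139 in sS1 and 6777 ± 1732 in sL2. All sL2 libraries lay below all sBud libraries, and these below all libraries of sL1 and sS1, which overlapped with each other. It was 3.30-fold higher in sS1 than in sL2 (log2 fold change 1.72, standard error [SE] 0.22, adjusted p of edgeR = 2.07e-05) and 2.65-fold higher in sL1 than in sL2 (1.41, SE 0.22, adjusted p of edgeR = 0.000109). sBud stood between them, with log2 fold changes of 0.79 against sL2, -0.93 against sS1 and -0.62 against sL1, none of which is above 1 in size. Both calls stayed when any single library was left out, at 1.63 to 1.95 for sS1 vs. sL2 and at 1.23 to 1.64 for sL1 vs. sL2.

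cas-MIR166-5, with 10439 counts in all, was also lowest in the second leaf, but highest in the first leaf and not in the stem. Its counts were 961, 879 and 1198 in sBud and 881, 1001 and 1144 in sL1, compared with 735, 1109 and 720 in sS1 and 699, 496 and 616 in sL2. This corresponds to 2006 ± 214 CPM in sBud (SD, n = 3) and 2448 ± 695 in sL1, compared with 1523 ± 390 in sS1 and 893 ± 154 in sL2. Every sL2 library was below every library of the other tissues. The level was 2.74-fold higher in sL1 than in sL2 (log2 fold change 1.45, SE 0.26, adjusted p of edgeR = 0.000428) and 2.25-fold higher in sBud than in sL2 (1.17, SE 0.26, adjusted p of edgeR = 0.00218). For sS1 vs. sL2 it was 0.77 and for sS1 vs. sL1 -0.68, both within the threshold of 1. No single library decided these calls.

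cas-MIR166-13 and cas-MIR166-28, which lay between them in counts, gave no DEM. cas-MIR166-13 had 3146, 2361 and 3939 counts in sBud and 3245, 2608 and 2232 in sL1, compared with 4518, 4129 and 3575 in sS1 and 4043, 3458 and 4895 in sL2, or 6149 ± 539, 6430 ± 1325, 7219 ± 184 and 6090 ± 864 CPM in these tissues (SD, n = 3). Its largest log2 fold change in any comparison was 0.25 (SE 0.18, sS1 vs. sL2). Its means in sS1 and sL2 differed 1.19-fold, where those of cas-MIR166-2 differed 3.30-fold; the difference between both members was not tested. cas-MIR166-28 had 1800, 1559 and 1987 counts in sBud and 1070, 1221 and 1346 in sL1, compared with 2799, 1754 and 1190 in sS1 and 2932, 3121 and 3358 in sL2. Its level was 3538 ± 302 CPM in sBud and 2935 ± 770 in sL1, compared with 3298 ± 977 in sS1 and 4634 ± 185 in sL2. The 3 sL2 libraries were its highest, and sL1 was lower than sL2 by a log2 fold change of -0.66 (SE 0.23, adjusted p of edgeR = 0.0363), which passes the adjusted p but not the fold change of a DEM.

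**Figure D3:**
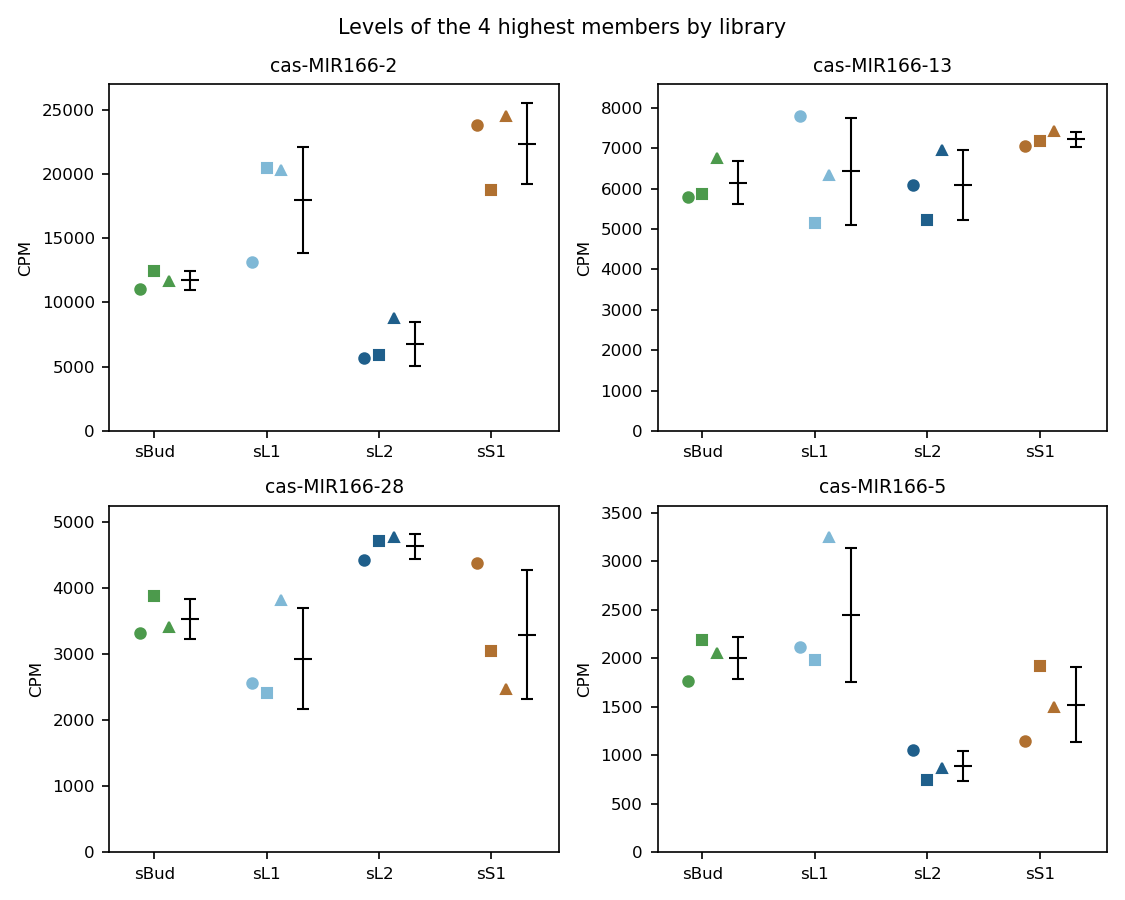
Level in CPM (y axis) of the 4 members with the most counts in each tissue (x axis). Each symbol is a library, and the black bar is the mean ± SD (n = 3). The 3 sL2 libraries are the lowest for cas-MIR166-2 and cas-MIR166-5 and the highest for cas-MIR166-28, and the tissues overlap for cas-MIR166-13.

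The remaining 24 tested members had 5935 counts together, or 3.39% of the summed counts, and between 10 and 1026 counts each. Their sum in a library ran from 333 to 805 counts. Set against the 4 abundant IDs, they had 256 ± 15.8 counts per 100000 counts of these in sBud (SD, n = 3) and 206 ± 10.6 in sL1, compared with 213 ± 8.66 in sS1 and 289 ± 14.3 in sL2. In this measure the sL2 libraries were all above those of sBud, and these above those of sL1 and sS1, which overlapped. The abundant IDs, which are the denominator here, had their largest share of the library in sL1 and sS1.

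Among these lower members, cas-MIR166-40, cas-MIR166-1 and cas-MIR166-8 showed the largest named differences, and all were lowest in sL2. cas-MIR166-40 had 10, 12 and 10 counts in sBud and 14, 15 and 11 in sL1, compared with 22, 14 and 12 in sS1 and 3, 5 and 11 in sL2. All sL2 libraries were below all others. It was 31.5 ± 2.02 CPM in sL1 and 9.23 ± 5.73 in sL2 (SD, n = 3), a log2 fold change of 1.74 (SE 0.49, adjusted p of edgeR = 0.0104), and 27.9 ± 5.65 CPM in sS1, a log2 fold change of 1.57 over sL2 (SE 0.48, adjusted p of edgeR = 0.0189). The adjusted p for sS1 vs. sL2 was 0.0510 without sL2 replicate 1, 0.0513 without sL2 replicate 2 and 0.0779 without sS1 replicate 1.

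cas-MIR166-1 had counts of 7, 7 and 10 in sBud and 7, 14 and 20 in sL1, compared with 22, 22 and 14 in sS1 and 4, 7 and 10 in sL2. It was highest in sS1 and sL1, and only the sBud libraries overlapped with sL2. The level was 33.9 ± 4.60 CPM in sS1 and 10.3 ± 4.09 in sL2 (SD, n = 3), with a log2 fold change of 1.70 (SE 0.50, adjusted p of edgeR = 0.0151), and 33.8 ± 20.6 CPM in sL1, with 1.67 over sL2 (SE 0.51, adjusted p of edgeR = 0.0168). The latter rested on sL1 replicate 3, without which it was 1.03 (adjusted p of edgeR = 0.136).

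For cas-MIR166-8 the counts were 39, 41 and 11 in sBud and 32, 57 and 11 in sL1, compared with 47, 27 and 23 in sS1 and 16, 13 and 15 in sL2. sBud replicate 3 and sL1 replicate 3 lay far below the other libraries of their tissues, at 18.9 and 31.2 CPM. The sL2 libraries were close to each other (21.7 ± 2.28 CPM) and below sL1 (73.6 ± 40.8), with a log2 fold change of 1.77 for sL1 vs. sL2 (SE 0.57, adjusted p of edgeR = 0.0230). This adjusted p was 0.104 without sL1 replicate 2 and 0.0647 without sL2 replicate 3.

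Named with smaller differences were cas-MIR166-3, cas-MIR166-39 and cas-MIR166-37. cas-MIR166-3 had 73, 44 and 58 counts in sS1 and 36, 25 and 33 in sL2, or 104 ± 23.8 and 46.3 ± 8.29 CPM (SD, n = 3), with 23 to 34 counts in the sBud and sL1 libraries. Its log2 fold change for sS1 vs. sL2 was 1.16 (SE 0.35, adjusted p of edgeR = 0.0173), with an adjusted p of 0.0575 without sL2 replicate 2 and of 0.0606 without sS1 replicate 1, and the log2 fold change was 0.88 with library size only. cas-MIR166-39 had 10, 10 and 12 counts in sL2, the lowest libraries of all in CPM (15.7 ± 1.12), against 21, 17 and 14 in sBud (35.0 ± 9.67), 11, 17 and 12 in sL1 (31.4 ± 4.27) and 22, 17 and 17 in sS1 (33.1 ± 3.09). Its log2 fold change over sL2 was 1.13 for sBud (SE 0.38, adjusted p of edgeR = 0.0239) and 1.06 for sS1 (SE 0.37, adjusted p of edgeR = 0.0365). The first had an adjusted p of 0.0637 without sBud replicate 1 and of 0.0523 without sL2 replicate 2, and the second one of 0.0595 to 0.0931 without sL2 replicate 1, 2 or 3 or sS1 replicate 1 or 3. With DESeq2 the adjusted p was 0.0754 and 0.133, in the same order, and cas-MIR166-40 in sS1 vs. sL2 had 0.0559. The call of cas-MIR166-39 in sS1 vs. sL2 was also lost with RLE factors (0.92), with library size only (0.78) and in a fit of both tissues alone (adjusted p of edgeR = 0.0596).

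cas-MIR166-37 was the only member named in a comparison without sL2. Its counts were 11, 12 and 17 in sBud and 10, 19 and 14 in sL1, compared with 39, 27 and 31 in sS1 and 15, 25 and 25 in sL2, and all sS1 libraries were above all others in CPM. It had 26.5 ± 5.37 CPM in sBud and 57.4 ± 9.25 in sS1 (SD, n = 3), a log2 fold change of -1.11 for sBud vs. sS1 (SE 0.38, adjusted p of edgeR = 0.0392). The adjusted p lay above 0.05 without sBud replicate 1, 2 or 3, sL1 replicate 3, sL2 replicate 2 or sS1 replicate 1 or 3, between 0.0503 and 0.131, and the log2 fold change was -0.98 at its smallest. It also missed the thresholds with DESeq2 (-1.03, adjusted p = 0.0850), with RLE factors (adjusted p of edgeR = 0.0525), with library size only (-0.93), without the 5 most abundant IDs (adjusted p of edgeR = 0.0501) and in a fit of both tissues alone (adjusted p of edgeR = 0.0626).

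**Figure D4:**
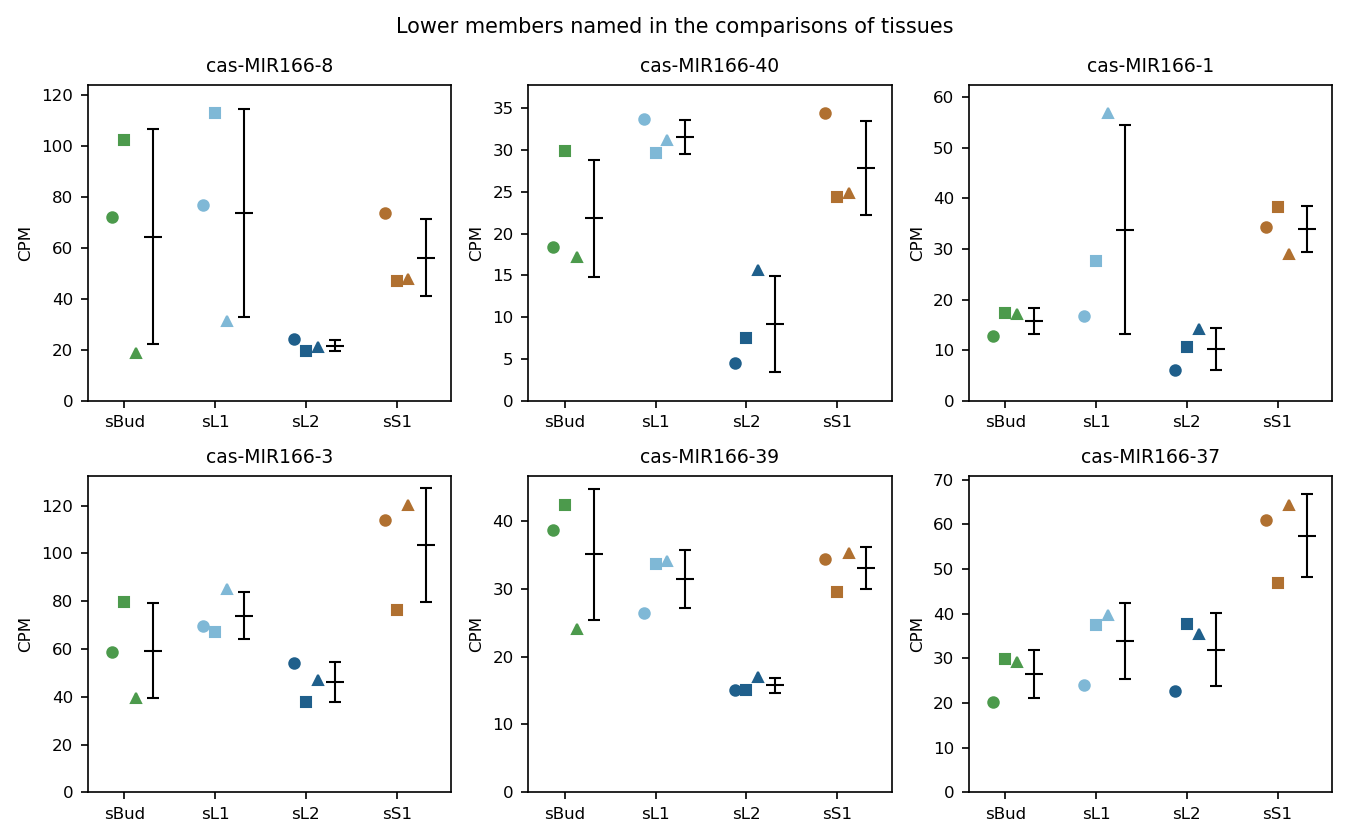
Level in CPM (y axis) of cas-MIR166-8, cas-MIR166-40, cas-MIR166-1, cas-MIR166-3, cas-MIR166-39 and cas-MIR166-37 in each tissue (x axis), from counts of 3 to 73 in a library. Each symbol is a library, and the black bar is the mean ± SD (n = 3). The sL2 libraries are the lowest for cas-MIR166-40 and cas-MIR166-39, and the sS1 libraries the highest for cas-MIR166-37.

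Without the filter on low counts, 8 of the 13 named fold changes had an adjusted p of edgeR above 0.05, namely those of cas-MIR166-3, cas-MIR166-37, cas-MIR166-39, cas-MIR166-1 and cas-MIR166-40. The calls of cas-MIR166-2, cas-MIR166-5 and cas-MIR166-8 stayed.

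The next members were called in at least 1 comparison but fell outside the named ones, because libraries overlapped, the adjusted p missed 0.05 or counts were few. cas-MIR166-11 went the other way from most members, with 6, 3 and 15 counts in sL1 against 35, 26 and 51 in sL2, 28, 13 and 19 in sBud and 43, 28 and 22 in sS1. sL1 replicate 3 overlapped with sL2, and the log2 fold change for sL1 vs. sL2 was -1.44 (adjusted p of edgeR = 0.0496), a DEM that was lost without sL1 replicate 1 or 2 or sL2 replicate 1 or 3. cas-MIR166-30 had 57, 19 and 22 counts in sS1, so that 1 library set its high level there, and 21, 16 and 13 in sL2. cas-MIR166-31 had 16, 6 and 18 counts in sL2 and 11 to 27 in the other libraries. cas-MIR166-33 had 22, 8 and 13 counts in sS1 and 5, 8 and 6 in sL2, and cas-MIR166-35 had 1 to 13 counts in a library.

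Of the members with no DEM, cas-MIR166-16 had 53 to 60 counts in the sBud libraries, 52 to 74 in sL1, 95 to 110 in sL2 and 81 to 147 in sS1. Its log2 fold change for sBud vs. sS1 was -0.94 (SE 0.34, adjusted p of edgeR = 0.0542). cas-MIR166-20 had 41 to 121 counts in a library and, over the tissues, 119 to 140 CPM on average, with no log2 fold change above 0.24 in size. cas-MIR166-29 had 15 to 25 counts in sBud, its lowest tissue in CPM, and 38 to 59 in sS1. cas-MIR166-18 had 15 to 54 counts in a library, cas-MIR166-19 had 14 to 40, cas-MIR166-17 had 11 to 49, cas-MIR166-25 had 1 to 18 and cas-MIR166-24 had 2 to 16. The highest means of cas-MIR166-18, cas-MIR166-19 and cas-MIR166-25 were in sBud, that of cas-MIR166-17 was in sS1 and that of cas-MIR166-24 in sL2.

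The 5 tested members with the fewest counts were cas-MIR166-23 (18 counts in all), cas-MIR166-27 (17), cas-MIR166-15 (16), cas-MIR166-14 (15) and cas-MIR166-7 (10). None exceeded 5 counts in a library. A count of 0 allows up to 3 counts, which corresponds to 7.22 CPM on average in sL1 and 4.44 CPM in sL2, so differences between tissues were not detectable at this depth. The 10 members that were not tested (cas-MIR166-26, cas-MIR166-42, cas-MIR166-38, cas-MIR166-6, cas-MIR166-34, cas-MIR166-10, cas-MIR166-9, cas-MIR166-21, cas-MIR166-12 and cas-MIR166-36) had 32 counts together and 1 to 6 each. Their sum was 7 in sBud and 10 in sL1, compared with 7 in sS1 and 8 in sL2, and 0 to 7 in a library.

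In the sBud vs. sS1 comparison group, 2 of the 28 tested members were DEMs, cas-MIR166-37 and cas-MIR166-1, both lower in sBud, against 29.3% of all tested miRNAs (13.1% lower in sBud). With adjusted p 1 of them stayed, cas-MIR166-37, against 22.5%. The median log2 fold change of the members was -0.31, against 0.06 over all tested miRNAs. Further, 6 of the members had libraries that did not overlap, against 41%, and 7 had an unadjusted p of edgeR below 0.05, against 40.1%. The 2 became 0 without sBud replicate 1, 4 without sBud replicate 2, 6 without sS1 replicate 2, and 1 without sBud replicate 3 or without sL2 replicate 1 or 2, all lower in sBud. Without sS1 replicate 1 there were 2, of which 1 was higher and 1 lower in sBud.

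Between sBud and sL1, 0 of the 28 members were DEMs, against 19.4% of all tested miRNAs (9.91% higher and 9.46% lower in sBud). 1 member, cas-MIR166-2, had an unadjusted p of edgeR below 0.05, against 26.1% of all tested miRNAs. DESeq2 gave 0 DEMs among the members and 35 among all tested miRNAs, and limma-voom gave 1 and 42. The number was 1 without sBud replicate 3 or sL1 replicate 3 and 2 without sL1 replicate 1. The median log2 fold change was -0.09 for the members and 0 for all tested miRNAs.

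The sBud vs. sL2 comparison group had 5 DEMs among the members, all higher in sBud, which was 17.9% of them against 43.2% of all tested miRNAs (19.8% higher in sBud). They were cas-MIR166-5, cas-MIR166-8, cas-MIR166-31, cas-MIR166-39 and cas-MIR166-40, and for 3 the adjusted p was also below 0.05, against 38.7%. The members' median was 0.43, and that of all tested miRNAs was 0. Without sBud replicate 2 the number was 2, and without sL2 replicate 2 it was 3.

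Between both leaves, 8 of the 28 members were DEMs in sL1 vs. sL2, which is 28.6% against 40.5% of all tested miRNAs. 7 were higher in sL1 (19.4% of all tested miRNAs were), namely cas-MIR166-2, cas-MIR166-5, cas-MIR166-8, cas-MIR166-31, cas-MIR166-1, cas-MIR166-40 and cas-MIR166-35, and 1 was lower, cas-MIR166-11. 6 had an adjusted p below 0.05, against 36%. The members' median log2 fold change was 0.54 and that of all tested miRNAs was 0.11. The number was 5 without sL1 replicate 2.

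Between sS1 and sL1 only cas-MIR166-11 was a DEM, higher in sS1, against 7.21% of all tested miRNAs (4.5% higher and 2.7% lower in sS1). With adjusted p 0 members were called by edgeR, 0 by DESeq2 and 0 by limma-voom, but edgeR then called 0 of all 222 miRNAs too. An unadjusted p of edgeR below 0.05 was found for 3 members, against 13.5% of all tested miRNAs. The number was 0 without sL1 replicate 1 or sS1 replicate 1 and 2 without sL1 replicate 2 or sS1 replicate 2. In sS1 vs. sL2, 8 of the 28 members were DEMs, all higher in sS1, against 41.4% of all tested miRNAs (20.3% higher in sS1). They were cas-MIR166-2, cas-MIR166-3, cas-MIR166-8, cas-MIR166-30, cas-MIR166-39, cas-MIR166-1, cas-MIR166-40 and cas-MIR166-33, and 5 had an adjusted p below 0.05, against 35.6%. The members' median was 0.62, against -0.02 over all tested miRNAs, and the number of DEMs was 5 without sL2 replicate 3 and 4 without sS1 replicate 1.

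**Figure D5:**
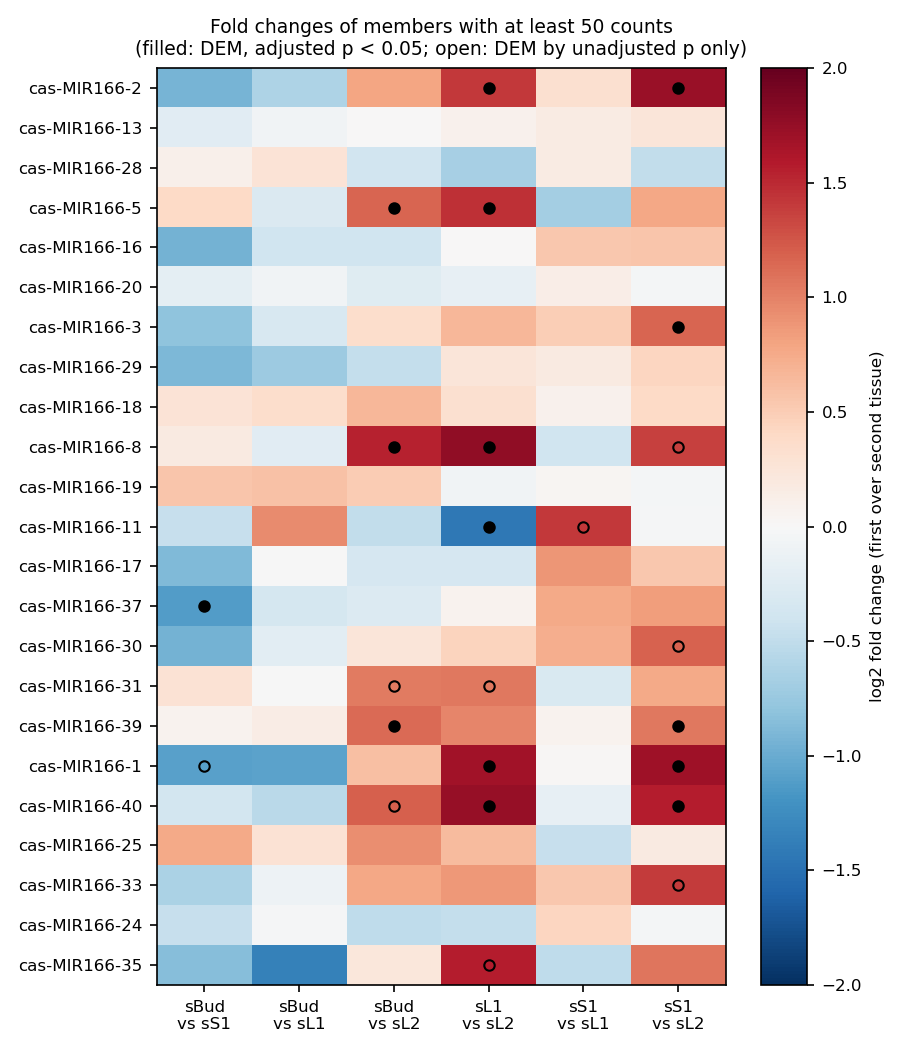
Log2 fold change (colour, red where the tissue named first is higher) of the 23 members with at least 50 counts in all (rows, by decreasing count) in the 6 comparisons (columns). Filled circles are DEMs with an adjusted p of edgeR below 0.05 and open circles DEMs by unadjusted p only. Circles stand mostly in the 3 columns that compare with sL2, where 20 of 21 are red with this scaling (relative to the 4 abundant IDs, all 5 calls there are higher in sL2, as are 73.6% of those of all tested miRNAs).

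The 4 abundant IDs changed in comparisons with and without sL2, and not as a block. In sBud vs. sS1 the log2 fold changes were -1.03 for cas-MIR166-4, -0.14 for cas-MIR166-41, 1.29 for cas-MIR166-22 and 2.59 for cas-MIR166-32. In sBud vs. sL1 they were -0.60, -0.37, 0.85 and 1.62, in the same order. For sS1 vs. sL2 the log2 fold changes were 1.05 for cas-MIR166-4 (SE 0.17), 1.01 for cas-MIR166-41 (SE 0.15), -0.13 for cas-MIR166-22 (SE 0.22) and -2.26 for cas-MIR166-32 (SE 0.28). For sL1 vs. sL2 they were 0.62, 1.24, 0.31 and -1.28, in the same order. For sBud vs. sL2 they were 0.02, 0.87, 1.16 and 0.34. cas-MIR166-41 was thus lowest in sL2, as was cas-MIR166-2, while cas-MIR166-4 was lower in sL2 than in sL1 and sS1 but had about the same mean as in sBud (193443 and 195829 CPM), and cas-MIR166-32 was higher in sL2 than in sL1 and sS1. cas-MIR166-22 was higher in sBud (22595 CPM) than in sS1 (9236 CPM) and sL2 (10081 CPM). The paper lists the miRNA of the same number, csn-miR166-22, as downregulated for sBud/sS1 and sBud/sL2. Its qRT-PCR found this miRNA to be specific to sS1. The counts here thus go the other way, and the cause was not tested. Other miRNAs that act on leaf form were counted as a background. No ID of miR165 is listed. Of 8 miR390 IDs, which set off small RNAs against auxin response factors, 4 were tested, with 2 DEMs higher in sBud than in sS1, 1 higher and 1 lower in sBud than in sL2, and 1 lower in each of sL1 and sS1 than in sL2. Of these, cas-MIR390-6, called once against sS1 and once against sL2, had 2.67 counts on average in sBud and 0 in the other tissue, which is within what a count of 0 allows, and its adjusted p of edgeR was 0.121 and 0.0795. Of 9 miR160 IDs, which target auxin response factors, 5 were tested, and 2 were higher in sBud than in each of sS1, sL1 and sL2. Of all tested miRNAs, 16.2%, 9.91% and 19.8% were DEMs higher in sBud in these comparisons. DEMs lower in sBud, sL1 and sS1 than in sL2 made up 23.4%, 21.2% and 21.2%. cas-MIR160-4 had 1.74 to 3.64 CPM outside sBud, within what a count of 0 allows. cas-MIR160-2 had 820 CPM in sBud and 215 to 367 CPM in the other tissues. The paper lists csn-miR160-2 as downregulated for sBud against each of them.

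To compare members within the family, the same test was run with the summed counts of the 4 abundant IDs in place of the library size, so that a fold change gives the change relative to them. Of their 2519616 counts, cas-MIR166-4 held 1750122 and cas-MIR166-41 held 671425, so this scaling follows mainly these IDs. None of the 13 fold changes named above stayed past both thresholds, and all kept their direction. Relative to the abundant IDs cas-MIR166-2 had a log2 fold change of 0.72 for sS1 vs. sL2 (SE 0.19, adjusted p of edgeR = 0.00525) and of 0.62 for sL1 vs. sL2 (SE 0.19, adjusted p of edgeR = 0.0141). In counts per 1000000 counts of the abundant IDs it was 35506 ± 1672 in sBud (SD, n = 3) and 39390 ± 3785 in sL1, compared with 42314 ± 3807 in sS1 and 25640 ± 6142 in sL2. Set against the abundant IDs, its lower level in sL2 was therefore smaller in size, but still beyond the spread of replicates compared with sS1 and sL1. For sBud vs. sL2 the log2 fold change was 0.47 (SE 0.18, adjusted p of edgeR = 0.0518).

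cas-MIR166-28 was highest in sL2 in this measure. It had 10705 ± 278 counts per 1000000 counts of the abundant IDs in sBud (SD, n = 3) and 6489 ± 1243 in sL1, compared with 6198 ± 1334 in sS1 and 17676 ± 2769 in sL2. The log2 fold change was -1.45 for sL1 vs. sL2 (SE 0.23, adjusted p of edgeR = 0.000160) and -1.51 for sS1 vs. sL2 (SE 0.23, adjusted p of edgeR = 0.000101), and it stayed between -1.62 and -1.30 with any single library left out. Its counts were thus higher in sL2 relative to the abundant IDs, although its CPM gave no DEM. cas-MIR166-13 had -0.64 for sL1 vs. sL2 and -0.73 for sS1 vs. sL2 (adjusted p of edgeR = 0.0482 and 0.0250), below the threshold of 1.

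Relative to the abundant IDs, 3 members were DEMs in sBud vs. sS1, 2 in sBud vs. sL1, 0 in sBud vs. sL2, 3 in sL1 vs. sL2, 1 in sS1 vs. sL1 and 2 in sS1 vs. sL2, against 39.6%, 22.5%, 43.2%, 45%, 9.91% and 48.2% of all tested miRNAs. In sL1 vs. sL2 and sS1 vs. sL2 all of these were higher in sL2, as were 76 of 100 and 85 of 107 DEMs of all tested miRNAs. This scaling moved the median log2 fold change of all tested miRNAs by -0.74 and -0.96 in these comparisons. Those with an adjusted p below 0.05 beside cas-MIR166-28 were cas-MIR166-11 (-2.21, SE 0.53, adjusted p of edgeR = 0.00340) and cas-MIR166-17 (-1.11, SE 0.37, adjusted p of edgeR = 0.0258) in sL1 vs. sL2, and cas-MIR166-5 (1.02, SE 0.29, adjusted p of edgeR = 0.0145) and cas-MIR166-19 (1.24, SE 0.42, adjusted p of edgeR = 0.0317) in sBud vs. sS1. cas-MIR166-11 kept its call with any single library left out. cas-MIR166-5 fell to 0.77 without sS1 replicate 1 and to 0.95 and 0.98 without sBud replicate 3 and sS1 replicate 3. The adjusted p was above 0.05 for cas-MIR166-19 without sBud replicate 1 or 3 or sS1 replicate 1 or 2 (0.0773 to 0.127), and for cas-MIR166-17 without sL1 replicate 1, 2 or 3 or sL2 replicate 1 or 2 (0.0542 to 0.0884).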

How the data were processed

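Small RNA libraries of 4 tissues with 3 replicates each were analysed. The counts that the authors deposited, 1 column per library, are reads per conserved miRNA ID without normalization. According to the paper, reads of rRNA, tRNA, snRNA and snoRNA were set aside and the rest were compared with plant miRNAs of miRBase. HISAT2 and BLAST are named there, but which step made these counts, and the rule for reads that match several IDs, are not given in the sources used here. Sequences of the IDs were not used here. The deposited protocol names an mRNA library kit, the paper an sRNA one. In the main fit, a p-value sets the difference between tissue means against the spread between replicate libraries. This spread was estimated over all 4 tissues, also those outside a comparison, and is that of these libraries only.

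The members and lists were chosen with earlier results of these data known. Testing covered the 222 of 650 IDs that reached 10 counts in all, in R 4.3.3 with edgeR 4.0.16 (TMM, glmQLFit and glmQLFTest, a single fit with a term per tissue). The fit was also run on simulated data, with larger changes than those of the named members, so this does not bear on calls near the threshold. DEMs follow the paper's thresholds, but the paper used DESeq and its own set of conserved miRNAs, and the numbers of DEMs differ. It reports few in sL1 vs. sL2, where 90 of the 222 IDs were called here. It also reports fewer in sBud vs. sL1 and sBud vs. sL2, and more in sBud vs. sS1. The cause of these differences was not tested. A fold change was named for a DEM if its adjusted p was below 0.05, its libraries were apart in CPM and its mean count reached 10 in the higher tissue (at most 5 per comparison). Alternatives comprised RLE factors, library size only, DESeq2 1.42.0, limma-voom (limma 3.58.1), removal of the 5 most abundant IDs, the 4 abundant miR166 IDs as library size, no filter, filterByExpr, adjusted p, fits of 2 tissues, the replicate number as a block, and each library left out. Leaving out libraries in the fit relative to the abundant IDs was added after seeing the data.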

Additional observations from a re-analysis of the deposited data

How the results depend on the processing

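The numbers of DEMs among the members are small, so single settings moved many of them. With adjusted p there were 1 in sBud vs. sS1, 3 in sBud vs. sL2, 0 in sS1 vs. sL1 and 5 in sS1 vs. sL2. The calls over all miRNAs with the same setting are given in brackets. DESeq2 gave 1, 3 and 4 in sBud vs. sS1, sBud vs. sL2 and sS1 vs. sL2 (55, 83 and 75 of 222). RLE factors gave 1 in sBud vs. sS1 (68 of 222). Library size only gave 0 in sBud vs. sS1 and 3 in sS1 vs. sL2 (70 and 85 of 222). No filter gave 1 in sBud vs. sS1 and 2 in sBud vs. sL2 (66 and 97 of 650). In sBud vs. sL1, limma-voom gave 1 (42 of 222). The removal of the 5 most abundant IDs and filterByExpr also gave 1 each there (44 of 217 and 38 of 147). Relative to the 4 abundant IDs there were 2 in sBud vs. sL1, 0 in sBud vs. sL2, 3 in sL1 vs. sL2 and 2 in sS1 vs. sL2. In sBud vs. sS1 there were 3, higher in sBud and not lower. The cause of these changes was not tested. With 1 library left out the numbers ranged from 0 to 6 in sBud vs. sS1, 0 to 2 in sBud vs. sL1, 2 to 6 in sBud vs. sL2, 5 to 9 in sL1 vs. sL2, 0 to 2 in sS1 vs. sL1 and 4 to 9 in sS1 vs. sL2. Scaling by library size only moved the log2 fold change of the median miRNA by -0.26 in sS1 vs. sL2, -0.17 in sL1 vs. sL2 and 0.18 in sBud vs. sS1, and the 4 abundant IDs as library size moved it by -0.96, -0.74 and 0.65.

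Of the 13 named fold changes, all kept their direction under every alternative run. All 13 kept their call with limma-voom and with filterByExpr, 12 without the 5 most abundant IDs, 11 with RLE factors and with fits of 2 tissues, 10 with library size only, 9 with DESeq2, 5 with no filter and 0 relative to the 4 abundant IDs. The share of the summed members was 2.44% to 2.56% in sBud with 1 library left out, 2.87% to 3.03% in sL1, 1.95% to 2.23% in sL2 and 3.18% to 3.27% in sS1. Of miR166 counts it was 6.85%, 6.38%, 6.76% and 6.32%.

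Equal replicate numbers gave no sign of pairing. Of 18 same-numbered pairs of libraries from different tissues, 1 had a correlation of deviations above 0.1 (-0.13 to 0.18). Of 36 pairs with different numbers, 6 did (-0.13 to 0.17). Such a check on 3 libraries per tissue cannot exclude pairing. With the replicate number as a block, 2, 0, 4, 6, 1 and 8 members were DEMs in sBud vs. sS1, sBud vs. sL1, sBud vs. sL2, sL1 vs. sL2, sS1 vs. sL1 and sS1 vs. sL2, and 10 of the 13 named calls stayed. Those that missed an adjusted p of 0.05 in edgeR with the block were cas-MIR166-37 in sBud vs. sS1 (0.0503) and cas-MIR166-39 in sBud vs. sL2 (0.0514) and in sS1 vs. sL2 (0.0679). Members with 10 to 18 counts in all are limited by depth.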
